A study of Rattus norvegicus with 6 samples.

Results

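Tight and gap junction genes were compared between rat airway basal cells grown in BEGM and in EpiX. The genes were chosen by symbol in the platform annotation: the claudins (Cldn), the zonula occludens proteins (Tjp), the connexins (Gja, Gjb, Gjc and Gjd), the pannexins (Panx), and Ocln, Marveld2, Marveld3 and F11r. This gave 43 of the 15037 named genes on the array, each with 1 probe set. The rule also named Cgn and Patj, which were not analysed here. The cells came from tracheal scrapings of male wild-type Sprague Dawley rats of 12 weeks and were kept as 3 lines, each from 3 rats, so an array stands for pooled animals. Each line was shared out at isolation between BEGM (bronchial epithelial growth medium) and a medium named EpiX. RNA was taken on day 8 and put on 1 array per culture, which gave 3 arrays per medium. All 6 cultures thus share strain, sex, age, tissue and day, and differ in the medium.

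Tight junctions seal the space between neighbouring epithelial cells and separate the apical from the basolateral membrane. Claudins form their strands, and which claudins a cell makes sets whether the seal is tight or lets chosen ions through. Occludin and its relatives of the MARVEL family join the strands, F11r is an immunoglobulin-like adhesion molecule beside them, and the zonula occludens proteins tie them to actin. Connexins form gap junctions, channels that pass small molecules from cell to cell. Pannexins are related proteins that form channels in the membrane of a single cell and release ATP. In the airway these proteins hold the barrier of the lining, and basal cells lie beneath its sealed surface.

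Values are the authors' log2 signals, and differences are EpiX minus BEGM. Folds assume that the logarithm is to base 2. A gene was called, and is said to have risen or fallen, at a Benjamini-Hochberg adjusted p under 0.05 by limma over all 15037 genes. Of 7 measured basal cell markers 3 rose, Krt15 (4.12), Bcam (3.11) and Tp63 (2.15), and 1 fell, Pdpn (-2.96), while Krt14 (16.38 to 17.13), Itga6 and Ngfr did not pass. Of 6 luminal, secretory and ciliated markers 1 fell, Krt18 (-3.68). The part of these shifts in the results on junction genes was not tested. Of 5 measured leukocyte markers 4, Ptprc among them, were dim in both media, and Cd68, a lysosomal protein of macrophages, was at 8.65 to 11.36. Here a gene is called dim in a medium where its mean there lies under the limit of the dimmest 25% of genes. That does not say whether the gene is expressed. Array 1 of BEGM stood apart from the other BEGM arrays. On the first principal component over all genes, with 69.7% of the variance, it scored -7.24, against -54.8 and -73.2 for BEGM arrays 2 and 3 and 34.2 to 53.9 for the EpiX arrays. Values without it are given where it decided a call, and for the other main members it moved in a paragraph of their own. The array was singled out from these same values. Leaving out the BEGM array nearest to EpiX tends to widen differences. The p-values without it therefore show dependence on 1 array and are not separate tests. The labels describe separate lines, so the spread between arrays includes that between lines.

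Cells in EpiX had more Cldn17 and Gjb6 RNA and less Cldn6 and Gjc1 RNA than cells in BEGM, while the main claudins of the airway barrier, occludin and Tjp1 did not pass the test. In all, 4 of the 43 members were called (9.30%), 2 higher and 2 lower. Of all genes tested, 5.78% were called, 2.63% higher and 3.15% lower. The median difference over the members was -0.03, against 0.00218 over all genes, and the median size of a difference was 0.28 against 0.23. Centring each array on its median moved the median over all genes to 0.13 and that over the members to 0.10, and turned the calls over all genes from 395 higher and 474 lower to 560 higher and 409 lower. Among the members, 10 were dim in both media and 33 were not. The 3 arrays of EpiX did not overlap those of BEGM in 9 members (20.9%), 4 higher and 5 lower. Of all genes 28.0% did not overlap, 13.5% higher and 14.5% lower. In such bulk samples fewer cells of a kind and less RNA per cell cannot be told apart.

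**Figure D1:**
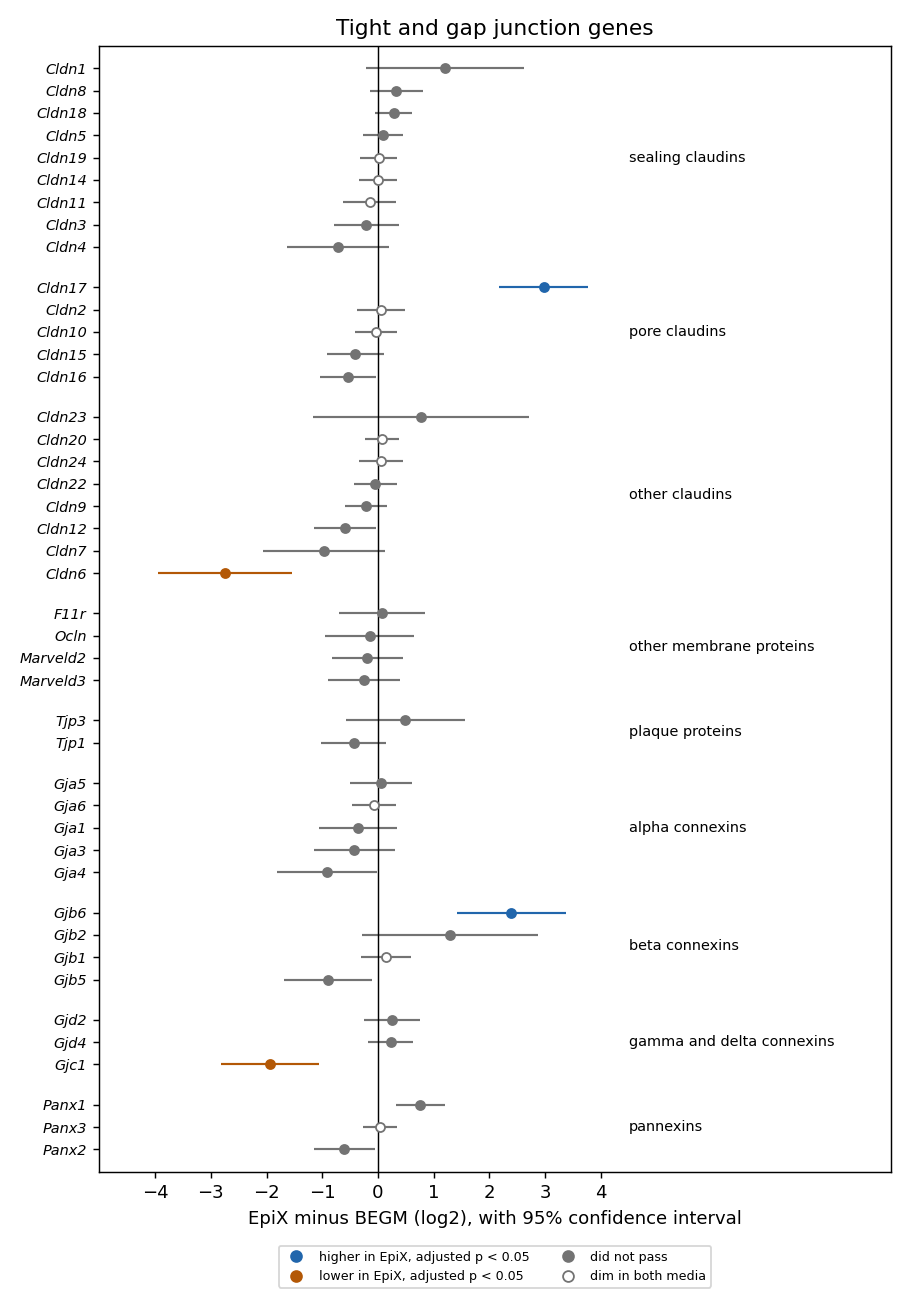
Difference EpiX minus BEGM (log2) of each of the 43 members, grouped by role, with its 95% confidence interval from limma. Points stand for the mean difference of 3 against 3 arrays. Cldn17 (2.98) and Gjb6 (2.39) lie farthest to the right, Cldn6 (-2.75) and Gjc1 (-1.94) farthest to the left, and open points are members that were dim in both media.

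Among the claudins, Cldn17, which forms an anion-selective pore, rose. It was at 5.48, 5.04 and 4.21 in BEGM cultures 1, 2 and 3 and at 7.70, 8.26 and 7.72 in EpiX cultures 1, 2 and 3, named by the number of their array. The groups lay far apart, and the BEGM values were close to the dim range. The difference was 2.98 ± 0.34 (SE, n = 3 per medium; limma adjusted p = 0.00739), which is 7.88-fold. Leaving out EpiX array 2 ended the call (2.79, adjusted p = 0.0527), and it held without each of the other 5 arrays.

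Cldn6, a claudin of embryonic and immature epithelia, fell. It was at 11.001, 12.27 and 11.33 in the BEGM cultures and at 7.84, 8.86 and 9.66 in the EpiX cultures. Every EpiX array was below every BEGM array, with the EpiX arrays spread more widely. The fall was -2.75 ± 0.51 (SE; limma adjusted p = 0.0290), 6.72-fold. The call ended without BEGM array 2 (-2.38, adjusted p = 0.110), BEGM array 3 (-2.85, 0.0593), EpiX array 1 (-2.28, 0.0744) or EpiX array 2 (-2.78, 0.122).

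Gjb6, a beta connexin of the skin and the inner ear, rose. It was at 6.12, 4.68 and 4.76 in the BEGM cultures and at 7.11, 7.90 and 7.73 in the EpiX cultures. BEGM array 1 was the BEGM array closest to EpiX. The difference was 2.39 ± 0.41 (SE; limma adjusted p = 0.0237), 5.26-fold, and 2.86 ± 0.26 without BEGM array 1 (adjusted p = 0.00118). The call ended without BEGM array 2 (2.14, adjusted p = 0.0995), BEGM array 3 (2.18, 0.0591), EpiX array 1 (2.63, 0.0621), EpiX array 2 (2.24, 0.117) or EpiX array 3 (2.32, 0.0737).

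Gjc1, a gamma connexin of muscle and vessel walls, fell. It was at 6.06, 6.61 and 7.47 in the BEGM cultures and at 4.79, 4.41 and 5.13 in the EpiX cultures. All EpiX values lay below all BEGM values and near the dim range. The fall was -1.94 ± 0.37 (SE; limma adjusted p = 0.0317), 3.83-fold. The call ended without BEGM array 2 (-1.99, adjusted p = 0.119), EpiX array 1 (-1.94, 0.108), EpiX array 2 (-1.75, 0.141) or EpiX array 3 (-2.11, 0.0632). Fibroblast markers moved the same way. The mean level over the 7 measured markers was 6.20, 6.91 and 9.50 on the BEGM arrays and 5.33 to 5.52 on the EpiX arrays, with Col1a1 at 12.34 on BEGM array 3. By limma 0 of the 7 were called, with 3 at an unadjusted p under 0.05. Without BEGM array 3 Gjc1 fell by 1.56 (limma adjusted p = 0.0402). The marker mean on the remaining BEGM arrays, 6.20 and 6.91, was also above that on every EpiX array. The mean of the 7 smooth muscle and cartilage markers was 6.10 to 6.50 in BEGM and 5.13 to 5.23 in EpiX. That list held 1 call, the fall of Cnn1 (-7.00), which weighs heavily in the mean, and its median difference was -0.29. Of its other muscle genes, Myh11 and Des were dim in both media. Actg2 was at 6.92 to 7.17 in BEGM and 6.36 to 6.53 in EpiX. Its difference of -0.58 did not pass (limma adjusted p = 0.0622). The part of these cells in the fall of Gjc1 was not tested.

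**Figure D2:**
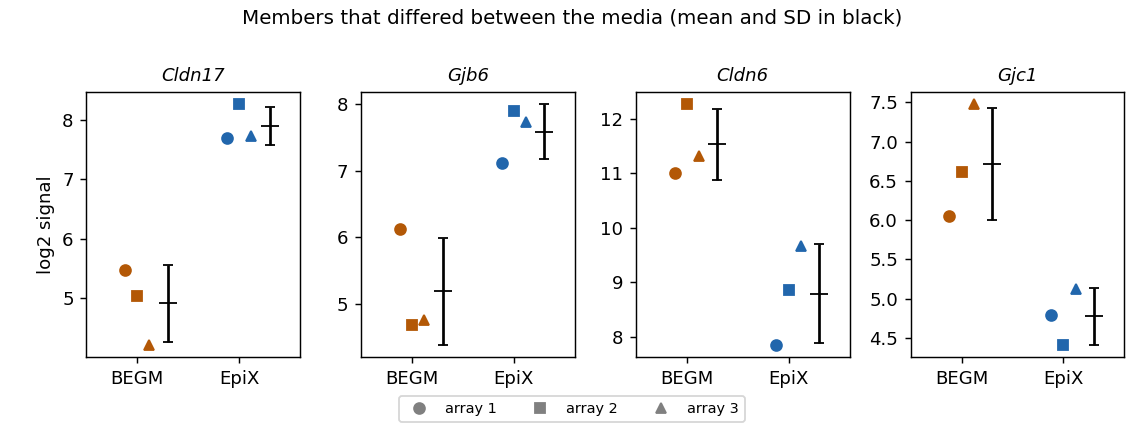
Log2 signal of Cldn17, Gjb6, Cldn6 and Gjc1 on each array, with BEGM in brown and EpiX in blue and 1 symbol per array number. The black line and bar are the mean and SD of the 3 arrays. In each gene the groups do not overlap, and BEGM array 1 is the BEGM array nearest to the EpiX mean in 4 of 4.

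The promoters of the called members are shown for the sequence context of the genes that rose or fell. The bases are the 250 before a RefSeq start of Cldn17, Cldn6, Gjb6 and Gjb2, the neighbour of Gjb6, on build GRCr8. Capitals mark matches to CACCTG, the E-box that Snail-type repressors bind, to the GC box GGGCGG, to the AP-1 motif TGANTCA or to the TATA box TATAAA, on either strand. A start of Gjc1 is not shown here.
Cldn17, chr11:41314852-41315101, minus strand: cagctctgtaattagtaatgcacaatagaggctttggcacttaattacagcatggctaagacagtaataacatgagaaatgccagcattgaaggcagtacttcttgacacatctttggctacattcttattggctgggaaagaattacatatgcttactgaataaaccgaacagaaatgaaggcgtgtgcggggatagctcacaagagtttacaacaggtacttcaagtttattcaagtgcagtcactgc
Cldn6, chr10:13215558-13215807, plus strand: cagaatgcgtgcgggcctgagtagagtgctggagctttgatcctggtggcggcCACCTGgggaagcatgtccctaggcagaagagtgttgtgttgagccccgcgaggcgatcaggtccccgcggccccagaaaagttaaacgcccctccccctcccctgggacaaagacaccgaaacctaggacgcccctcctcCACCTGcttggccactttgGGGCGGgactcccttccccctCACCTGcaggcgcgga
Gjb6, chr15:35410139-35410388, minus strand: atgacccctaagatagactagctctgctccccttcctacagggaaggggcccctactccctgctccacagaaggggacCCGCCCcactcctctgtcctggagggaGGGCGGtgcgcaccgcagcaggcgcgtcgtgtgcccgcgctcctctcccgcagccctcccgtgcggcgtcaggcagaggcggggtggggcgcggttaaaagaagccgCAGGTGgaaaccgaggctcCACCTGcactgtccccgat
Gjb2, chr15:35381954-35382203, minus strand: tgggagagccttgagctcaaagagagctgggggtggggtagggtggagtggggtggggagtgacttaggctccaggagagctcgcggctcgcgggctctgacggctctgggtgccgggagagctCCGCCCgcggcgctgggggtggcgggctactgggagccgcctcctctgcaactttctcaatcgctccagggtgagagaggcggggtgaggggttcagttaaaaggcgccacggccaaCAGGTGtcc
The Cldn17 window held 0 of these motifs and had a GC content of 40.4%. The Cldn6 window (64.4% GC) held 3 CACCTG motifs and 1 GGGCGG. The Gjb6 window (68.0% GC) held 2 of each, and the Gjb2 window (67.2% GC) 1 of each. A second RefSeq start of Gjb6 held 1 GGGCGG in its window. Over all 33469 RefSeq promoters 15.9% held CACCTG, 30.5% GGGCGG, 6.34% TGANTCA and 12.9% TATAAA. Of 35 promoters that matched 34 member genes, 31.4% held CACCTG, 54.3% GGGCGG, 8.57% TGANTCA and 8.57% TATAAA. A match describes these letters only.

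Of 9 pairs of members that lie next to or near each other in the RefSeq gene order, 4 are given here, and 0 of the 9 had both members called. Gjb2 and Gjb6 have 0 protein-coding genes between them, and their differences were 1.29 (adjusted p = 0.312) and 2.39. Cldn17 lies beside Cldn8, whose difference was 0.33 (adjusted p = 0.404). Cldn6 lies beside Cldn9, at 4.41 to 4.71 in BEGM and 4.14 to 4.43 in EpiX, near the dim limit on every array. The sealing claudins Cldn3 and Cldn4 are neighbours too, with differences of -0.21 and -0.72.

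The sealing claudins held 0 calls among 9 members by limma, while 5.78% of all genes were called, so a count of 0 says little here. An unadjusted p under 0.05 was seen in 0 of them and in 3377 of all 15037 genes. Their differences ran from -0.72 to 1.203, with a median of 0.01. Cldn4, a barrier claudin of airway and other epithelia, was at 16.20, 15.67 and 15.21 in the BEGM cultures and at 15.53, 15.16 and 14.22 in the EpiX cultures. The groups overlapped, and the difference of -0.72 ± 0.39 (SE) had a 95% confidence interval from -1.64 to 0.19 (limma adjusted p = 0.330). Cldn3 was at 15.46, 15.33 and 14.61 in BEGM and 15.08, 14.96 and 14.74 in EpiX, a difference between -0.79 and 0.38 by its interval. Cldn8 was at 6.04 to 6.42 in BEGM and 6.31 to 6.91 in EpiX. The vessel claudin Cldn5 was at 5.19 to 5.46 in BEGM and 5.23 to 5.51 in EpiX. Cldn18 was slightly higher on every EpiX array (5.74 to 5.99) than on every BEGM array (5.50 to 5.68), and its difference of 0.28 did not pass (adjusted p = 0.298). Cldn11, Cldn14 and Cldn19 were dim in both media.

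Cldn1, the claudin without which the skin barrier fails, depended on BEGM array 1. It was at 15.11, 13.09 and 12.68 in the BEGM cultures and at 15.19, 14.65 and 14.64 in the EpiX cultures. BEGM array 1 lay within the EpiX range, and BEGM arrays 2 and 3 well below it. The difference over all arrays was 1.203 ± 0.60 (SE; limma adjusted p = 0.296), and without BEGM array 1 it was 1.95 ± 0.24 (adjusted p = 0.00379).

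Of the other pore-forming claudins, Cldn2 and Cldn10 were dim in both media. Cldn15 was at 4.26 to 4.98 in BEGM and 4.10 to 4.45 in EpiX, where its mean was dim. Cldn16, a channel claudin of the kidney, was at 5.04 to 5.72 in BEGM and 4.599 to 4.81 in EpiX. These groups did not overlap, and the difference of -0.55 did not pass (adjusted p = 0.192). Cldn17 was thus the 1 call among 5 members of this group, while 5.78% of all genes were called.

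The remaining claudins gave 1 call among 8 members, that of Cldn6, while 5.78% of all genes were called. Cldn7, a basolateral claudin of many epithelia, was at 12.68, 11.80 and 10.97 in the BEGM cultures and at 11.36, 10.92 and 10.25 in the EpiX cultures. The groups overlapped, with a difference of -0.97 ± 0.46 (SE; limma adjusted p = 0.277; 95% interval -2.06 to 0.12). With the array number as a block, an alternative setting, Cldn7 passed (limma adjusted p = 0.0352). No label says that arrays of 1 number share a line. Cldn12 was at 9.40 to 9.98 in BEGM and 8.73 to 9.41 in EpiX (-0.59, adjusted p = 0.203). Cldn23 was at 11.69, 8.92 and 8.74 in BEGM and 11.37, 10.63 and 9.69 in EpiX. It resembled Cldn1 in that BEGM array 1 was as high as the EpiX arrays. Its difference of 0.78 did not pass (adjusted p = 0.644), and without BEGM array 1 it was 1.73 ± 0.45 (adjusted p = 0.0474). Cldn20 and Cldn24 were dim in both media, and Cldn22 was at 4.52 to 4.86 on the 6 arrays.

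The other membrane proteins of the tight junction held 0 calls among 4 members by limma, and 0 had an unadjusted p under 0.05. With 5.78% of all genes called, a count of 0 in so small a group says little. Occludin, Ocln, was at 14.04, 13.62 and 12.85 in the BEGM cultures and at 13.75, 13.33 and 12.98 in the EpiX cultures. The media overlapped almost fully, and the interval of the difference ran from -0.95 to 0.65. F11r was at 12.91, 12.40 and 11.53 in BEGM and at 12.43, 12.34 and 12.30 in EpiX, with an interval from -0.70 to 0.85. Marveld2, which seals the points where 3 cells meet, was at 9.69 to 10.71 in BEGM and 9.97 to 10.23 in EpiX. Marveld3 was at 7.22 to 7.84 and 6.80 to 7.71.

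Of the plaque proteins, Tjp1, the scaffold that recruits the claudins to the junction, was at 13.93, 13.95 and 13.54 in the BEGM cultures and at 13.78, 13.39 and 12.93 in the EpiX cultures. The groups overlapped, and the difference of -0.44 ± 0.24 (SE) did not pass (limma adjusted p = 0.352; 95% interval -1.02 to 0.14). Tjp3, found mainly in epithelia, was at 6.71 to 8.14 in BEGM and 7.15 to 8.44 in EpiX.

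The connexins gave 1 rise and 1 fall among 12 members, while 2.63% of all genes rose and 3.15% fell. Gja1, the most widely expressed connexin, was bright in both media, at 15.53, 16.35 and 16.63 in the BEGM cultures and 15.61, 15.79 and 16.06 in the EpiX cultures. The groups overlapped, with a difference of -0.35 ± 0.30 (SE; limma adjusted p = 0.548), which was -0.68 without BEGM array 1 (adjusted p = 0.0729). Gja3, a lens connexin, was at 5.82, 6.995 and 6.79 in BEGM and 5.90, 6.25 and 6.18 in EpiX. Its difference of -0.42 did not pass (adjusted p = 0.487), and without BEGM array 1 it was -0.78 (adjusted p = 0.0356). Gja4, a connexin of the endothelium, was at 4.70, 6.24 and 4.99 in BEGM and 4.44, 4.25 and 4.51 in EpiX. These groups did not overlap, BEGM array 2 stood highest, and the difference of -0.91 did not pass (adjusted p = 0.220). Among the 8 endothelial markers 0 were called by limma and 2 had an unadjusted p under 0.05. Their mean level was 4.78 to 4.93 in BEGM and 4.37 to 4.54 in EpiX. Of these markers 6 had a lower mean in EpiX and 2 a higher one. Cdh5, Kdr, Tie1 and Vwf were dim in both media. Pecam1 was at 4.67 to 5.04 in BEGM and 4.30 to 4.70 in EpiX, where its mean was dim. Tek was at 4.84 to 6.14 in BEGM and 4.10 to 4.95 in EpiX, and Emcn at 4.25 to 4.67 and 4.36 to 4.87. Esam, an adhesion molecule of endothelium and platelets, was at 6.87, 8.44 and 7.57 in BEGM and 5.87 to 6.33 in EpiX. Gja4 was highest on BEGM array 2, and so were Esam, Cdh5, Pecam1 and Tie1. Tek (6.14 on BEGM array 1 and 4.84 on BEGM array 2), Kdr and Vwf were highest on BEGM array 1, and Emcn on EpiX array 3. The part of such cells was not tested. Gja5 was at 6.26 to 6.76 in BEGM and 6.16 to 6.85 in EpiX, and Gja6 was dim.

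Gjb2, which forms mixed channels with Gjb6, was at 9.31, 6.94 and 6.75 in the BEGM cultures and at 9.22, 9.22 and 8.43 in the EpiX cultures. BEGM array 1 was the highest of all 6 arrays, while BEGM arrays 2 and 3 were the lowest. The difference of 1.29 ± 0.67 (SE) did not pass (limma adjusted p = 0.312), and without BEGM array 1 it was 2.11 ± 0.28 (adjusted p = 0.00461). Gjb5, a connexin of stratified epithelia, was at 13.40, 13.18 and 12.22 in BEGM and at 12.39, 11.97 and 11.76 in EpiX. Its groups overlapped only through BEGM array 3, and its difference of -0.90 did not pass (adjusted p = 0.170), though it did without BEGM array 3 (-1.25, adjusted p = 0.0439). Gjb1, Gjd2 and Gjd4 had values of 3.54 to 4.13, 4.23 to 4.57 and 4.51 to 5.01 in BEGM and of 4.04 to 4.11, 4.27 to 4.95 and 4.95 to 5.14 in EpiX. These 3 were at or near the dim range on all arrays.

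The pannexins held 0 calls among 3 members by limma, with 2 at an unadjusted p under 0.05, while 5.78% of all genes were called. Panx1, the main ATP-releasing pannexin, was at 5.79, 5.92 and 5.58 in the BEGM cultures and at 6.83, 6.43 and 6.31 in the EpiX cultures. Every EpiX array was higher, but the difference of 0.76 ± 0.19 (SE) missed the threshold (limma adjusted p = 0.0640). It passed in 4 of the 8 other settings that kept all arrays, which were quantile normalization (0.89, adjusted p = 0.0413), median centring (0.0460), array weights (0.0408) and a random block (0.0430). Panx2 was lower on every EpiX array (5.73 to 6.24 against 6.38 to 7.07), and its difference of -0.60 missed the threshold (adjusted p = 0.192). Panx3, a pannexin of bone and cartilage, was dim in both media.

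Without BEGM array 1, 8 members were called (18.6%), 5 higher and 3 lower, against 13.9% of all genes. The 4 members called over all arrays were among them, joined by Cldn1, Cldn23 and Gjb2 as higher and Gja3 as lower. That array was singled out from these same data, so the added calls show its weight only. Leaving out BEGM array 2 left 1 call, and leaving out BEGM array 3 gave 3. With EpiX array 1 left out 1 member was called, with EpiX array 3 left out 2 were, and with EpiX array 2 left out limma called 0, with 5 at an unadjusted p under 0.05. Over all genes the calls moved alike, to 192 and 544 without BEGM arrays 2 and 3 and to 170, 101 and 418 without EpiX arrays 1, 2 and 3, against 869 on all 6 arrays. The direction of Cldn17, Gjb6, Cldn6 and Gjc1 was the same each time.

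BEGM array 1 also moved differences that were not called with it or without it. Without that array Cldn7 was at -0.54, Cldn4 at -0.47 and Cldn3 at -0.04, each nearer to 0. Tjp3 went from 0.49 to 0.92 and F11r from 0.08 to 0.39, and Ocln turned from -0.15 to 0.12. Adjusted p-values without the array ran from 0.155 to 0.945 over these 6 genes.

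**Figure D3:**
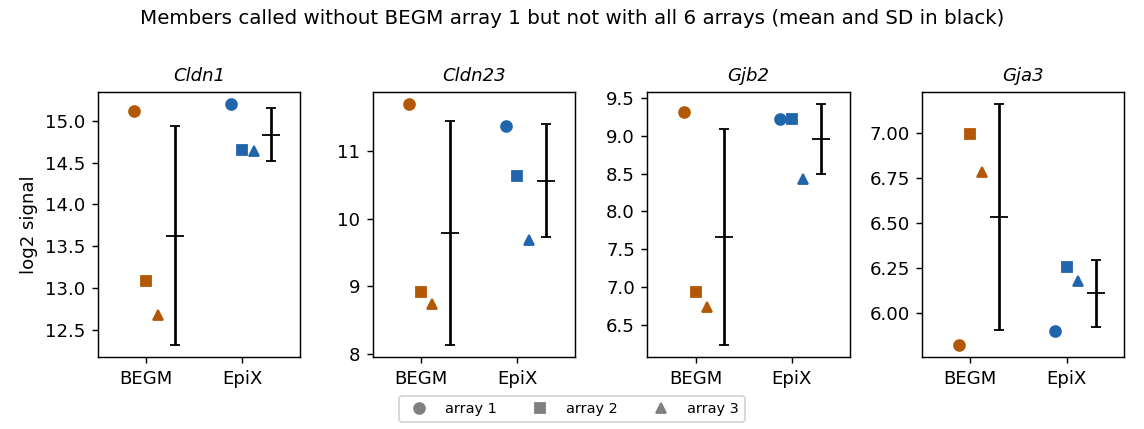
Log2 signal of Cldn1, Cldn23, Gjb2 and Gja3 on each array, with BEGM in brown, EpiX in blue and the mean and SD of 3 arrays in black. BEGM array 1 (circle) lies with the EpiX arrays, at 15.11 for Cldn1 and 9.31 for Gjb2, while BEGM arrays 2 and 3 lie apart from them.

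Many tight junction genes shared another pattern, seen after the values were known and not tested. They were highest on the array numbered 1 and lowest on the array numbered 3 in both media. Of the 21 tight junction members that were not dim in both media, 10 had this order (47.6%), and 0 had the reverse. Over all genes the shares were 6.66% and 5.42%, and 7.92% and 6.31% over genes not dim in both media. The 10 were Cldn1, Cldn3, Cldn4, Cldn7, Cldn23, Ocln, Marveld2, Marveld3, F11r and Tjp3. From array 1 to array 3, Cldn7 dropped by 1.71 in BEGM and by 1.11 in EpiX, Tjp3 by 1.43 and 1.29, Ocln by 1.19 and 0.77, and Cldn4 by 0.99 and 1.31. These drops were as large as or larger than the differences between the media in the same genes. Of the 12 connexins and pannexins not dim in both media, 1 had this order, Gjb5, and 1 the reverse, Gja1. The number is that of the source label. The titles give arrays 1 the same number but call arrays 2 number 3 and leave arrays 3 without one, so the order rests on the source label, which does not say that arrays of 1 number come from the same line. The mean level of the fibroblast markers was also highest on array 3 of each medium. On arrays 1, 2 and 3 it was 6.20, 6.91 and 9.50 in BEGM but only 5.38, 5.33 and 5.52 in EpiX. Col1a1, Col1a2 and Dcn were not highest on array 3 of EpiX. The part of fibroblasts in this order was not tested.

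**Figure D4:**
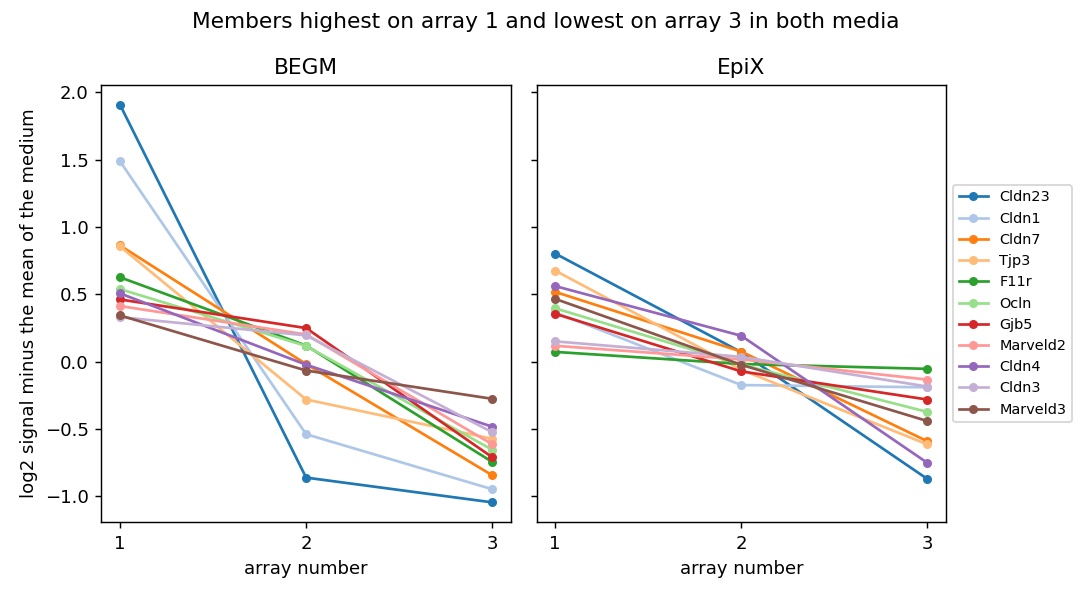
Log2 signal minus the mean of its medium, by array number, for the 11 members that were highest on array 1 and lowest on array 3 in both BEGM (left) and EpiX (right). Lines join the arrays of 1 gene. Cldn23 and Cldn1 fall most in BEGM, by 2.95 and 2.44, and F11r falls least in EpiX, by 0.13.

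Proteins that work beside the tight junction held 5 falls and 0 rises among 32 measured genes (15.6% called, against 5.78% of all genes, of which 3.15% fell). The largest was that of the junctional adhesion molecule Jam3 (-1.93 ± 0.33, SE; limma adjusted p = 0.0230), followed by Tmem47, a claudin-like membrane protein (-1.59 ± 0.23), the tricellular receptor Lsr (-1.09 ± 0.23) and Amotl2, which links junctions to actin and YAP (-0.90 ± 0.14). The adenovirus receptor Cxadr fell by 0.64 and was at 14.89 to 14.94 in BEGM and 14.24 to 14.33 in EpiX. With each array centred on its median, Lsr and Cxadr no longer passed (adjusted p = 0.0694 and 0.0695). The count was 0 by limma without BEGM array 2 and without each of the EpiX arrays, where 8 or 9 genes had an unadjusted p under 0.05. It was 9 without BEGM array 1, 2 higher and 7 lower, while the calls over all genes rose to 13.9%. The polarity genes Pard3 (0.07), Prkci (0.12), Crb3 (-0.20) and Pals1 (0.32) did not pass. Pard6g was higher on every EpiX array, and its difference of 0.96 did not pass either (limma adjusted p = 0.137). The media did not overlap in 11 genes of this list, 4 higher and 7 lower, against 28.0% of all genes. Scrib, at 9.63 to 9.85 in BEGM and 10.27 to 10.55 in EpiX, missed the threshold (adjusted p = 0.0538). In this list 8 of 32 genes were highest on array 1 and lowest on array 3 in both media, and 0 the reverse. The list was chosen with earlier results of these data known, so its share of calls does not test for an excess.

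Genes of connexin binding and turnover held 3 falls and 0 rises among 9 measured members (33.3% called, against the 5.78% and 3.15% of all genes). The list was chosen with earlier results of these data known, so this share does not test for an excess. The actin-binding protein drebrin, Dbn1, which binds Gja1, fell by 5.28 ± 0.17 (SE; limma adjusted p = 0.000142), from 12.98 to 7.70. The tubulin Tuba1a fell by 3.88 and the kinase Src, which phosphorylates Gja1, by 1.07. The Src call ended when any array but BEGM array 1 was left out (adjusted p = 0.0519 to 0.106), while Dbn1 and Tuba1a stayed called without any single array. The count was 6 without BEGM array 1, 1 higher and 5 lower, while the calls over all genes rose to 13.9%. Gja1 itself did not pass.

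Transcription factors known to act on junction genes held 4 rises and 0 falls among 21 measured (19.0% called, against 5.78% of all genes, of which 2.63% rose). These were Tp63 (2.15 ± 0.20, SE; limma adjusted p = 0.00431), Klf5 (1.54 ± 0.26), Tfap2a (1.29 ± 0.16) and Cebpa (0.67 ± 0.14). Tp63 is also among the basal cell markers above. This list too was chosen with earlier results known, so its share of calls does not test for an excess. Tp63 was called without any single array, Tfap2a without any but EpiX array 2 (adjusted p = 0.0594), and Klf5 lost its call without BEGM array 2 (0.0947), EpiX array 1 (0.0839) or EpiX array 2 (0.110). Cebpa lost its call without any array but BEGM array 1 (0.0743 to 0.179), and also with a trended robust variance (0.0916). Leaving out BEGM array 1 gave 10 calls, 8 higher and 2 lower, while the calls over all genes rose to 13.9%. Leaving out BEGM array 2 or EpiX array 1 gave 2, and leaving out EpiX array 2 gave 1. Grhl2, an activator of Cldn4, was at 10.58 to 11.63 in BEGM and 12.05 to 12.56 in EpiX, and its difference of 1.07 did not pass (adjusted p = 0.0863). The media did not overlap in 11 of the 21 genes, 7 higher and 4 lower, against 28.0% of all genes. The repressors Snai1 (-1.41, limma adjusted p = 0.154) and Zeb2 (-2.79, 0.0892) were lower on every EpiX array without passing. The same held for Nkx2-1 (-0.84, 0.0817) and Cdx2 (-0.57, 0.0622). On BEGM arrays 1, 2 and 3 Snai1 was at 4.72, 5.72 and 6.89 and Zeb2 at 5.56, 7.52 and 9.01. The fibroblast marker mean also rose in that order, at 6.20, 6.91 and 9.50, and its part was not tested. Snai2, a repressor also found in basal cells, was at 13.03 to 13.83 in BEGM and 13.45 to 14.61 in EpiX.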

How the data were processed

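RNA of 6 cultures was measured on 6 arrays by an Affymetrix protocol, per the labels' protocols. The authors' deposited log2 values give 1 signal for each of 24834 probe sets and array. Transcriptome Analysis Console is listed in the submitters' processing notes, with no step or version. Background correction, normalization and centring are unstated in the sources used here. The log scale was read from the values, and base 2 is assumed. No detection calls or scanner files were used, so no gene is called present or absent, and the number of arrays limits the precision.

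Genes were named through the platform annotation (15049 named probe sets, the brightest kept per gene, 15037 genes), and all 43 member symbols matched RefSeq by gene ID. All genes were fitted on the medium with limma 3.58.1 (lmFit, eBayes) in R 4.3.3, with no filter, and p-values are 2-sided and Benjamini-Hochberg adjusted over all genes. Confidence intervals are at 95% and unadjusted. In simulated arrays of 15037 genes with independent normal noise, 38 of 100 differences of 1 and 90 of 100 of 3 were recovered, with 9 false calls. The simulation held no array set apart from its group, as BEGM array 1 was, and no effect shared between genes. Sequences are RefSeq's (GRCr8), and plots used matplotlib 3.10.9.

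The array number is that of the source label. After subtraction of group means, arrays of the same number correlated at 0.32, -0.01 and 0.32, so the number was a block only as an alternative. The others were a random block (statmod 1.5.0), quantile normalization, median centring, leaving out the dimmest 25% of genes, the mean of probe sets, a trended robust variance, array weights and leaving out arrays.

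Members, lists and rules were chosen with earlier results of these data known. Named with values on every array were called members, those with groups apart and a difference of at least 1, and Cldn1, Cldn4, Cldn7, Ocln, Tjp1, F11r, Gja1, Gjb2, Gjb6 and Panx1. Further members, and list genes that were not called, were chosen after their values were seen.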

Additional observations from a re-analysis of the deposited data

How the results depend on the processing

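Over the settings that kept all 6 arrays, Cldn17 (2.98 to 3.19), Gjb6 (2.39 to 2.67), Cldn6 (-2.92 to -2.62) and Gjc1 (-2.17 to -1.81) kept their direction and their call. Of 374 values for 22 members, 337 kept direction and side of the threshold, 21 lost the call, 12 gained it and 4 changed sign. Those that changed sign were for F11r (range without arrays -0.30 to 0.39) and Ocln (-0.48 to 0.12). Without single arrays or both of a number, the calls ran from 0 to 2089 for all genes, 0 to 8 for the members, 0 to 9 for tight junction partners, 0 to 6 for gap junction partners and 0 to 10 for the regulators. Fewer arrays also leave fewer degrees of freedom. The count of 0 for all genes by limma came without both arrays of number 2, with 1582 genes at an unadjusted p under 0.05. Array weights gave 1987 calls over all genes, 9 partners, 6 gap junction partners and 11 regulators, and the cause was not tested.

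With the number as a replicate block, 5 members were called instead of 4, the added one being Cldn7 (-0.97, adjusted p = 0.0352). The block gave 1252 calls over all genes instead of 869, 4 tight junction partners, 5 gap junction partners and 7 regulators (6 higher, 1 lower). Under the block Cxadr (adjusted p = 0.0578) and Cebpa (0.0519) lost their calls. Array pairs of other numbers correlated at -0.37 to 0.16, and array 2 of EpiX did not correlate best with its own number.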
